A study of Mus musculus with 8 samples.

Results

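Leptin receptor positive (LEPR+) mesenchymal stem cells are perivascular stromal cells of the bone marrow that make niche factors for blood-forming cells. Their identity rests on a small set of transcription factors. Described here are 10 mesenchymal transcription factor genes: Meox1, Meox2, Ebf1, Ebf3, Foxc1, Prrx1, Snai2, Twist1, Twist2 and Runx1. They were taken by gene symbol from the 52636 genes of the deposited count matrix, and all 10 were found and passed the filter on low counts. Meox1 was selected on its measured fold change, since it was already known to be lower after lymphotoxin β receptor (LTβR) blockade in these libraries, and the other 9 because they are known factors of marrow stroma or close relatives. The contrast between the groups was thus in view when the members were picked. Its values are given below as a description of these libraries, without a test that would support the choice.

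In the LTβR-Ig group, C57BL/6 mice received 150 µg of LTβR-Ig intravenously each week for 3 weeks. This soluble decoy binds the ligands of LTβR, a TNF-family receptor that signals to NF-κB. In the control group, mice of the same strain received the same dose and schedule of an IgG1 control against hen egg lysozyme. Cells were taken from collagenase-digested long bone marrow and sorted by flow cytometry, with a repeat sort, as living LEPR+ cells negative for CD45, Ter119, CD31 and CD144. Each group has 4 libraries of polyA RNA, and the labels give neither the age or sex of the mice nor whether each library is a separate animal, so errors and tests measure the spread between these libraries. Library totals lay between 52378101 and 64403177 counts.

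EBF1 and EBF3, helix-loop-helix factors of the early B-cell factor family, and the forkhead factor FOXC1 are known in mouse marrow to keep LEPR+ cells in their niche state, with high Cxcl12 and Kitl and without bone formation. PRRX1 is a homeobox factor of limb mesenchyme, SNAI2 is a zinc-finger repressor of the Snail family, and TWIST1 and TWIST2 are basic helix-loop-helix factors that restrain osteoblast differentiation. RUNX1 is best known from blood stem cells and is also made by mesenchymal cells. MEOX1 and MEOX2 are homeobox factors that act together in the somites of the mouse embryo, and in mouse heart MEOX1 has been described as a regulator of fibroblast activation.

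Reads of close paralogs can be split by counting, so the transcripts were compared first. In GENCODE M21 transcripts, no word of 76 bases, the length of the reads, was shared between Meox1 and Meox2. The same held for all 16 pairs compared within the Meox, Ebf, Foxc, Prrx, Snai, Twist and Runx families, so an exact read of full length separates these paralogs.

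Baseline levels were compared per length, as CPM (counts scaled to a library of fixed size) per kilobase of exon. In the 4 control libraries Snai2 stood highest, at 251 ± 33.9 CPM per kilobase (SD, n = 4). Foxc1 followed at 61.6 ± 23.5, then Ebf1 at 31.8 ± 1.24, Runx1 at 28.0 ± 2.44, Ebf3 at 26.2 ± 1.14 and Prrx1 at 21.6 ± 3.48 CPM per kilobase (SD, n = 4 each). Meox1 came 7th of the 10, at 15.8 ± 4.19 CPM per kilobase, a level above that of 81.0% of tested genes. Twist1 had 6.42 ± 1.51, Meox2 1.47 ± 0.781 and Twist2 1.32 ± 0.801 CPM per kilobase (SD, n = 4 each). By the length of all exons, control ranges overlapped between the neighbours Ebf1 and Runx1, Runx1 and Ebf3, Prrx1 and Meox1, and Meox2 and Twist2. On that measure these pairs did not differ beyond their spread. Ranges of the other neighbouring pairs did not overlap on that measure. With the length of the longest transcript in place of all exons, Runx1 moved above Ebf1 and Twist2 above Meox2, while Meox1 stayed 7th. The distances between genes depended on the length used. By the longest transcript, control means were 36.5 CPM per kilobase for Prrx1 and 15.8 for Meox1. Foxc1 at 61.6 then stood near Runx1 at 57.4, Ebf1 at 51.8 and Ebf3 at 48.5 CPM per kilobase. Ranges were not compared on that length.

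In LTβR-Ig libraries Meox1 was at 2.23 ± 0.462 CPM per kilobase (SD, n = 4), 8th of the 10 and above 41.0% of tested genes. Snai2 at 175 ± 22.9 and Foxc1 at 58.4 ± 19.1 CPM per kilobase remained the highest there. Meox1 and Twist1 changed places: in LTβR-Ig libraries the level of Meox1 was 0.177 to 0.441 times that of Twist1, and in control libraries 1.43 to 4.12 times.

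**Figure D1:**
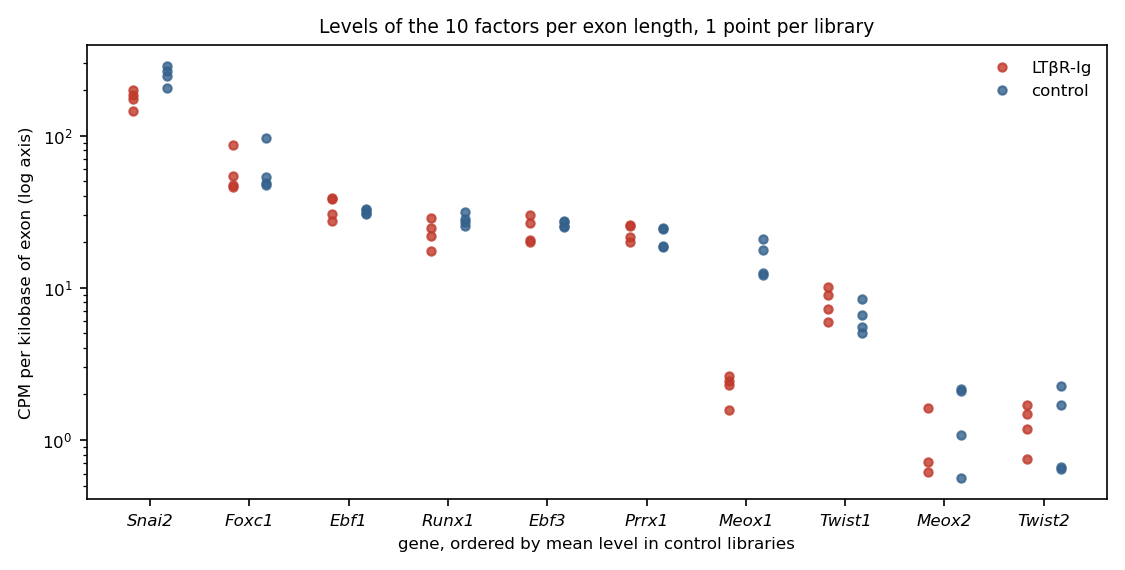
Level of each of the 10 factors in CPM per kilobase of exon (log axis), 1 point per library, LTβR-Ig libraries in red and control libraries in blue, ordered by mean control level. Snai2 is highest, Meox1 is the gene whose points are well apart between the groups, and the LTβR-Ig library with no Meox2 count (replicate 2) cannot be drawn on this axis.

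Meox1 (ENSMUSG00000001493.9, chromosome 11, 101877510 to 101894374 on mm10, 1 annotated transcript) was the member with the furthest change. It was at 5.43, 5.08, 3.51 and 5.88 CPM in LTβR-Ig replicates 1 to 4, and at 28.0, 46.4, 39.4 and 27.1 CPM in control replicates 1 to 4. Every LTβR-Ig library lay below every control library. The raw reads behind these values were 335, 269, 199 and 302 counts with LTβR-Ig, against 1750, 3038, 2211 and 1586 counts in controls. The fitted log2 fold change was -2.82 (SE 0.27, 95% interval -3.43 to -2.21), which puts Meox1 at 14.1% of control. The relative spread between libraries was alike in both groups, with a coefficient of variation of 20.7% with LTβR-Ig and 26.5% in controls. In bulk RNA, fewer Meox1-expressing cells and less Meox1 RNA per cell cannot be told apart.

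In the edgeR fit (quasi-likelihood F test, Benjamini-Hochberg adjustment over all genes), 1 of the 10 members passed an adjusted p of 0.05, and that was Meox1. Of all 16045 tested genes 6 passed, or 0.0374%. Since Meox1 was chosen for this contrast, nothing is read from that count. The call was lost without control replicate 3 (log2 fold change -2.76, edgeR adjusted p = 0.0621), without replicate 1 of LTβR-Ig (-2.86, edgeR adjusted p = 0.0532) and without replicate 2 of that group (-2.83, edgeR adjusted p = 0.0604). It was also lost with the replicate number as a block (edgeR adjusted p = 0.215; the series' design text speaks of pairs without saying what a pair shares) and without control replicate 3 and LTβR-Ig replicate 2 together (edgeR adjusted p = 0.251). Over all 8 fits that leave out a library, the log2 fold change of Meox1 stayed between -2.93 and -2.66.

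Meox2, the paralog of Meox1, was scarce in both groups. It was at 1.46, 0, 1.68 and 3.81 CPM in LTβR-Ig replicates 1 to 4, against 2.54, 5.05, 4.94 and 1.31 CPM in control replicates 1 to 4. LTβR-Ig replicate 2 had no Meox2 count, which allows up to 0.0558 CPM at 3 counts (counting error only), and the groups overlapped. The log2 fold change was -0.99 (SE 1.20, 95% interval -3.72 to 1.73). This interval holds both no change and the change of Meox1, so these libraries do not resolve whether the paralogs differ in response. Meox2 is also made by endothelial cells, whose markers took 0.00148 to 0.0165% of counts in LTβR-Ig and 0.00184 to 0.00736% in control libraries. Their part in the Meox2 values was not tested.

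**Figure D2:**
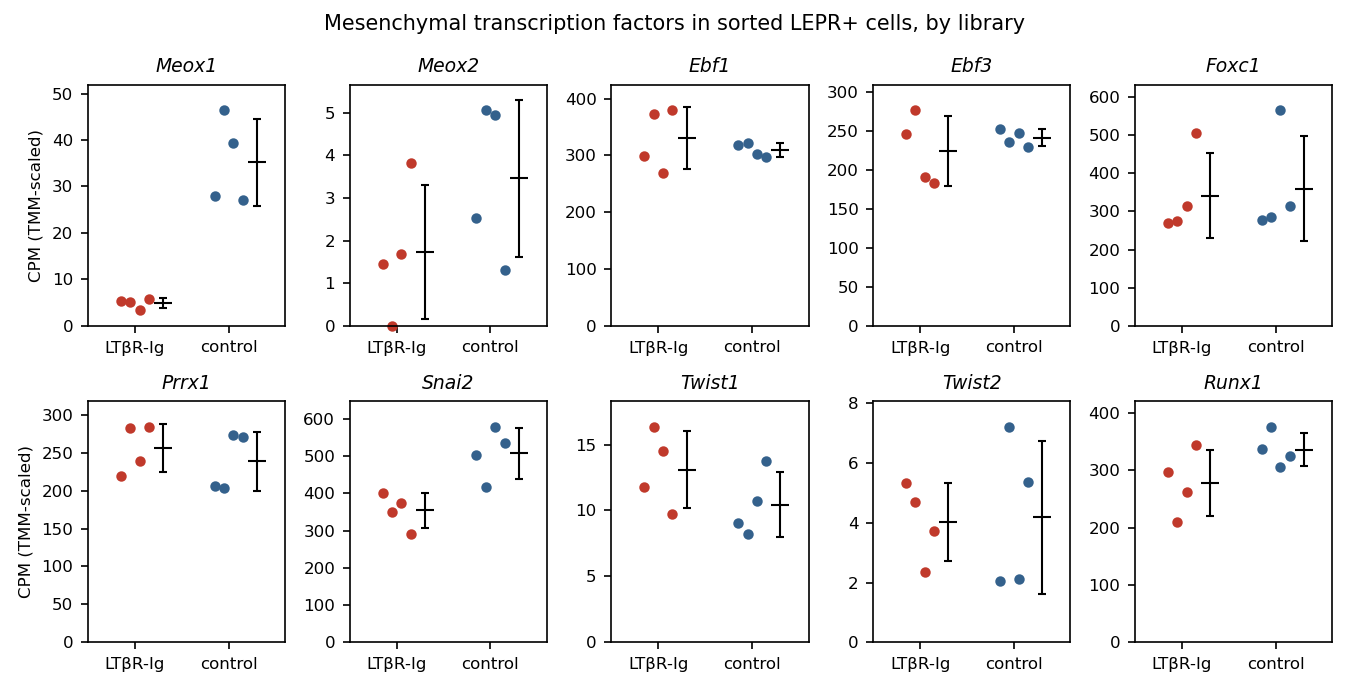
CPM of the 10 factors, 1 panel per gene with its own axis from 0; points are the 4 libraries of each group in the order of their replicate numbers, LTβR-Ig (red) left of control (blue), and the black bar is the mean ± SD. The groups are apart for Meox1 and Snai2 and overlap for the other 8 genes.

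Both early B-cell factors overlapped between the groups. Ebf1 was at 299, 373, 268 and 379 CPM in LTβR-Ig libraries and at 318, 323, 302 and 297 CPM in control libraries (log2 fold change 0.09, SE 0.12, 95% interval -0.19 to 0.37). Ebf3 was at 247, 277, 191 and 184 CPM with LTβR-Ig and at 253, 236, 248 and 230 CPM in controls (log2 fold change -0.11, SE 0.14, 95% interval -0.43 to 0.21). Both genes were tight among controls and wider with LTβR-Ig. The coefficient of variation was 16.6% with LTβR-Ig and 3.89% in controls for Ebf1, and 20.0% with LTβR-Ig and 4.36% in controls for Ebf3; this difference in spread was not tested. Ebf1 is also a B-cell factor, and B-cell markers took 0.00360 to 0.00642% of counts in LTβR-Ig and 0.00304 to 0.00986% in control libraries, with Pax5, the defining B-cell factor, at no more than 1.78 CPM in LTβR-Ig and 1.82 CPM in control libraries.

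Foxc1, which keeps Cxcl12 and Kitl high in marrow stroma of the mouse, was at 270, 275, 315 and 506 CPM in LTβR-Ig libraries and at 277, 286, 565 and 313 CPM in control libraries. In each group 1 library stood above the rest, LTβR-Ig replicate 4 and control replicate 3. The log2 fold change was -0.08 (SE 0.29, 95% interval -0.73 to 0.57), and it turned to 0.23 without control replicate 3, 0.03 without replicate 1 of LTβR-Ig and 0.01 without replicate 2 of that group, so this small difference has no settled sign. Prrx1 was at 220, 282, 239 and 284 CPM with LTβR-Ig and at 206, 204, 273 and 271 CPM in controls (log2 fold change 0.10, SE 0.14, 95% interval -0.22 to 0.43). Its groups covered nearly the same range.

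Snai2, the most abundant member, was the other factor whose groups did not overlap. It was at 400, 351, 375 and 292 CPM in LTβR-Ig libraries and at 501, 416, 578 and 535 CPM in control libraries. The log2 fold change was -0.52 (SE 0.13, 95% interval -0.82 to -0.21), or 69.8% of control. Snai2 did not pass over all genes in the edgeR, DESeq2 or limma-voom fits. Groups that do not overlap, with LTβR-Ig lower, were found for 2 of the 10 members and for 406 of all tested genes, or 2.53%. None of the 10 had LTβR-Ig higher without overlap, against 2.36% of tested genes (4.89% for both directions). As these members were picked with this contrast known, nothing is read from these counts.

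Runx1 was at 297, 209, 262 and 344 CPM in LTβR-Ig libraries and at 338, 376, 307 and 325 CPM in control libraries. In LTβR-Ig replicates 1 to 3 it lay below every control, and replicate 4 was within the control range. The log2 fold change was -0.27 (SE 0.15, 95% interval -0.62 to 0.07). As Runx1 is also a blood factor, the share of pan-leukocyte and myeloid markers is given beside it: 0.172 to 0.377% of counts in LTβR-Ig and 0.158 to 0.387% in control libraries. The pan-leukocyte gene Ptprc, which encodes the CD45 used to remove blood cells, was at 39.9 to 57.6 CPM with LTβR-Ig and 21.7 to 61.1 CPM in controls.

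The Twist genes were low. Twist1 was at 11.8, 16.3, 14.5 and 9.73 CPM in LTβR-Ig libraries and at 9.04, 8.23, 10.7 and 13.8 CPM in control libraries (log2 fold change 0.32, SE 0.27, 95% interval -0.28 to 0.93). Twist2 was at 5.33, 4.70, 2.36 and 3.72 CPM with LTβR-Ig and at 2.04, 7.21, 2.10 and 5.36 CPM in controls (log2 fold change -0.05, SE 0.53, 95% interval -1.26 to 1.15). Both genes overlapped between the groups, and the interval of Twist2 is too wide to exclude a change of more than 2-fold in either direction. The predicted antisense locus Gm29100 shares 1477 exon bases with Twist2 and had 0 to 11 counts in LTβR-Ig and 0 to 107 in control libraries. The strand setting of the counting is not given in the sources used here, so reads in that overlap cannot be told apart. Smaller overlaps with predicted antisense loci exist for Ebf3 (355 bases with Gm45278) and Runx1 (106 bases with Gm26626), where the other locus had at most 50 counts in any library; Meox1 shares no exon base with another annotated gene.

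Set side by side, the 95% interval of Meox1 did not overlap that of 8 of the other 9 members, the exception being Meox2. Since Meox1 was chosen for its fold change and the same count was not made over all tested genes, nothing is read from it. The other 9 had log2 fold changes between -0.99 and 0.32, with 6 below 0 and 3 above, and a median of -0.08 against -0.0021 over all tested genes. Their median absolute log2 fold change was 0.11, against 0.25 over all tested genes. The tested genes were not matched to these members in abundance, and scarce genes have wider errors. Nothing on the stability of these members is read from the medians. The log2 fold change of Meox1 lay below that of Snai2 by a difference of -2.30 and below that of Ebf1 by -2.91. Per library, the level of Meox1 was 0.0572 to 0.0794 times that of Ebf1 with LTβR-Ig and 0.385 to 0.629 times in controls, and 0.00849 to 0.0183 times that of Snai2 with LTβR-Ig and 0.0459 to 0.101 times in controls.

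**Figure D3:**
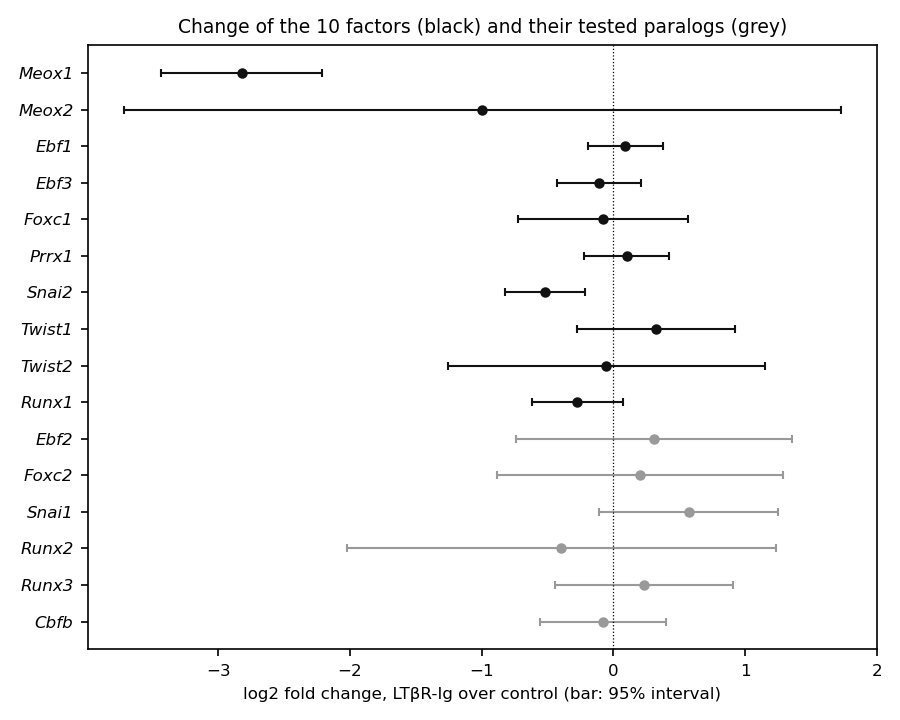
Log2 fold change of LTβR-Ig over control with its 95% interval (x axis) for the 10 factors in black and 6 tested paralogs in grey. Meox1 stands at -2.82, and the other intervals hold 0 apart from that of Snai2.

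The paralogs and the binding partner of the members were compared next. Of 9 listed, 6 had enough counts to be tested. By edgeR none passed, none had an unadjusted p under 0.05, and DESeq2 and limma-voom called none. Snai1, the relative of Snai2, was at 26.2 ± 9.42 CPM with LTβR-Ig and 17.6 ± 4.11 CPM in controls (SD, n = 4 each); its log2 fold change was 0.57 (SE 0.30). Ebf2 had 0.31 (SE 0.46), Foxc2 0.20 (SE 0.48) and Runx3 0.23 (SE 0.30). Cbfb, the DNA-binding partner of RUNX proteins, had -0.08 (SE 0.21). Runx2, the osteoblast factor, had -0.39 (SE 0.72), with 7.00, 172, 120 and 203 CPM in LTβR-Ig libraries and 153, 137, 180 and 189 CPM in control libraries; LTβR-Ig replicate 1 stood far below all others. Ebf4, Prrx2 and Snai3 were not tested, with at most 62 counts in any library.

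Other transcription factors of mesenchyme gave no call. Of 28 tested, 18 were above 0 and 10 below, with a median log2 fold change of 0.11 and 0 passing by edgeR, DESeq2 or limma-voom and 0 with an unadjusted edgeR p under 0.05. The most abundant were Id3, at a log2 fold change of 0.14 (SE 0.40), and Id2, at 0.37 (SE 0.26), inhibitors of helix-loop-helix factors, with Nfia at 0.24 (SE 1.03) and Sox4 at -0.19 (SE 0.15). The large error of Nfia goes with control replicate 3, at 2.03 CPM against 294 to 612 CPM in the other controls and 286 to 546 CPM with LTβR-Ig.

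Transcription factors of the fat and bone lineages were tested in full, 14 of 14, and none passed by edgeR, DESeq2 or limma-voom. Their median log2 fold change was 0.20, with 11 above 0. The adipocyte factors Cebpa and Pparg had 0.32 (SE 0.25) and 0.08 (SE 0.17), the osteoblast homeobox factor Dlx5 0.33 (SE 0.23) and the stress and osteoblast factor Atf4 0.30 (SE 0.09). At an unadjusted edgeR p under 0.05, which 6.32% of all tested genes reached, 2 were higher: Atf4 and the osteoblast factor Sp7, which was named after its values were seen. Sp7 was at 36.5 ± 10.1 CPM with LTβR-Ig and 18.9 ± 6.49 CPM in controls (SD, n = 4 each).

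Genes of the somite network in which MEOX factors act were mostly too low to test. Of 14, 6 were tested and none passed by edgeR or limma-voom; the paired-box genes Pax1, Pax3 and Pax7 were among the 8 below the filter. The transcriptional cofactor gene Eya1 stood at -0.23 (SE 0.23) on the log2 fold change scale. Cdkn1a is the cell cycle inhibitor p21 gene, which MEOX proteins are known to activate in human endothelial cells. It was at 65.0 ± 24.2 CPM with LTβR-Ig and 30.8 ± 5.99 CPM in controls (SD, n = 4 each). Its log2 fold change was 1.08 (SE 0.27, edgeR adjusted p = 0.354). DESeq2, which called 199 of all 16045 tested genes, also called Cdkn1a (DESeq2 adjusted p = 0.0175). Six4, a homeobox factor, had -0.84 (SE 0.26). These were the 2 members of the list with an unadjusted edgeR p under 0.05, in opposite directions.

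Fibroblast activation genes, 13 of 13 tested, had no call by edgeR, DESeq2 or limma-voom, and 11 were above 0, with a median log2 fold change of 0.41. The abundant matrix genes Col1a1 and Lox had 0.41 (SE 0.64) and 0.13 (SE 0.13), the matricellular gene Thbs1 0.48 (SE 0.27) and the surface protease gene Fap 0.22 (SE 0.10). Col3a1, named after its values were seen, was the 1 member with an unadjusted edgeR p under 0.05, at 0.45 (SE 0.11). Acta2, named after its values were seen, had the highest value of the list, 1.72, with a wide error (SE 1.22). Beside these lists, chondrocyte markers took 0.00657 to 0.0214% of counts in LTβR-Ig and 0.00288 to 0.0117% in control libraries, and megakaryocyte markers 0.0817 to 0.330% in LTβR-Ig and 0.0554 to 0.235% in control libraries; their part in the values was not tested.

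Niche genes that depend on EBF and FOXC1 in mouse marrow were tested for all 8 listed, and none passed by edgeR or limma-voom. On the log2 fold change scale Adipoq stood at 0.17 (SE 0.17), Cxcl12 0.22 (SE 0.13), Lepr -0.14 (SE 0.11) and Vcam1 0.09 (SE 0.13). Kitl, which encodes stem cell factor, was the 1 member with an unadjusted edgeR p under 0.05 and was called by DESeq2, at -0.58 (SE 0.10). The list's median was 0.13. As a check of the label, all 8 markers of LEPR+ stroma were present, with Cxcl12 at 16912 to 21792 CPM in LTβR-Ig and 13393 to 18676 CPM in control libraries, and together they took 3.66 to 4.27% of counts in LTβR-Ig and 3.40 to 3.88% in control libraries. Of other cell types, erythroid markers took 1.56 to 3.55% of counts in LTβR-Ig and 1.57 to 4.72% in control libraries, progenitor markers 0.0156 to 0.0242% in LTβR-Ig and 0.0123 to 0.0168% in control libraries, and Schwann markers 0.0175 to 0.0301% in LTβR-Ig and 0.0142 to 0.0214% in control libraries. All these summed ranges overlapped. Of 66 single markers 4 did not overlap between the groups, against 4.89% of all tested genes, and none of them passed by edgeR; they are named after their values were seen. Pdgfra, a surface marker of LEPR+ stroma, was at 293 to 389 CPM in LTβR-Ig and 407 to 461 CPM in control libraries, and the stromal marker Kitl was also lower. The progenitor marker Kit was at 102 to 147 CPM in LTβR-Ig and 39.6 to 62.1 CPM in control libraries, and the cartilage gene Comp at 44.1 to 77.6 CPM in LTβR-Ig and 10.2 to 36.8 CPM in control libraries. DESeq2, which called 199 of all 16045 tested genes, called Kitl, Kit and Comp. The part of these markers in the members' values was not tested. The muscle factors Myod1 and Myf5 and the Schwann cell factor Sox10 had no count in any library.

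Finally, annotated genes were ranked by how closely their profile over the 8 libraries followed that of Meox1, as the root mean square difference in log2(CPM + 1) after each gene was centred on its control mean. This measure uses the contrast itself and is a description. Nearest was Angptl1, a secreted angiopoietin-like protein gene, at a difference of 0.27 (log2 fold change -2.55, SE 0.24). It shares 465 exon bases with the predicted locus Gm37802 on the other strand, so reads there cannot be told apart. Gm37802 was itself lower, with 120 to 195 counts in LTβR-Ig and 821 to 1168 in control libraries. Ager, which encodes a receptor for glycated proteins, followed at 0.43 (log2 fold change -3.37, SE 0.29). Col6a4, a collagen VI chain gene, was next at 0.48, with no count in any LTβR-Ig library and 4.38 ± 1.86 CPM in controls (SD, n = 4), at least 81.7-fold lower at a floor of 3 counts per library. It sat at -2.36 in the LTβR-Ig libraries on this scale, where the added 1 CPM limits the drop of so low a gene. Col6a4 did not pass by edgeR (adjusted p = 0.0665). The kinase gene Dclk1 had a difference of 0.52 (log2 fold change -2.09, SE 0.18) and Hhip, a hedgehog-binding protein gene, 0.56 (log2 fold change -3.16, SE 1.10). Hhip did not pass by edgeR either (adjusted p = 0.628). No other member came near: Meox2 ranked 305th, Snai2 576th and Runx1 1407th of 11759 genes ranked, and Twist1 9528th. Ranked by fold change alone, 1 of these 5 genes, Angptl1, stayed among the nearest 5.

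**Figure D4:**
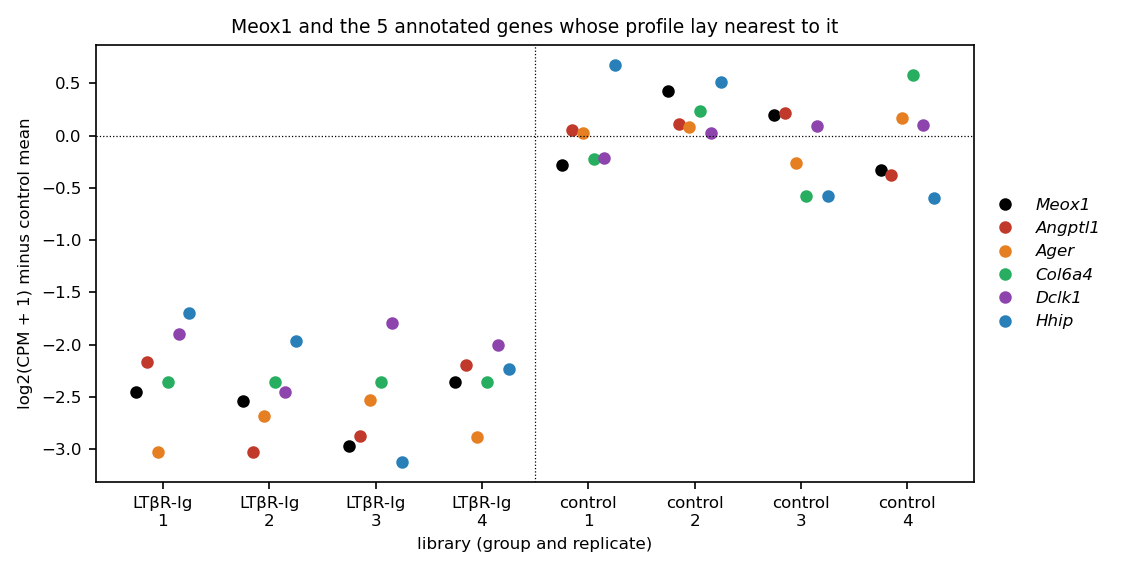
Log2(CPM + 1) minus the control mean (y axis) in each of the 8 libraries (x axis, LTβR-Ig left of control) for Meox1 in black and the 5 annotated genes with the smallest root mean square difference to it. All 6 genes sit well below 0 in the LTβR-Ig libraries, and their order differs from library to library.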

How the data were processed

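PolyA RNA of sorted LEPR+ marrow cells was sequenced as paired reads, per the labels' protocols. The authors deposited raw counts per gene for 52636 genes in 8 libraries. HISAT2, HTSeq and mm10 are named in the submitters' processing notes, and the strand setting was not given in the sources used here. Groups and replicate numbers came from sample titles. Symbols, coordinates and exon lengths came from GENCODE M21 (GRCm38), where 52489 gene IDs matched without the version suffix. No replicate pair differed by as little as sampling noise.

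Counts were tested with edgeR 4.0.16 in R 4.3.3: TMM scaling, filterByExpr (minimum count 10, minimum total 15), robust quasi-likelihood F test of LTβR-Ig against control without covariates, and Benjamini-Hochberg adjustment over 16045 genes at 0.05. Standard errors were derived from the F statistic. Levels per kilobase use the union of annotated exons. Members and lists were chosen with earlier results of these data known. The text names all members, all tested paralogs, the 4 most abundant tested genes of every other list, any gene past the threshold, loci overlapping a member's exons, and the 5 annotated genes most like Meox1 at a minimum mean of 1 log2 CPM; 1 gene taken by this rule is not reported here. Also run were scaling by DESeq2 size factors or upper quartiles, DESeq2 1.42.0, limma-voom 3.58.1 with sample weights, no filter, a stricter filter, a replicate block, and fits without 1 or 2 libraries.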

Additional observations from a re-analysis of the deposited data

Results flagged for a closer look

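In groups of 4 libraries, a value is listed here when its gap to the nearest other library took most of the range of its group. By chance about 1 in 20 groups would be listed, and 5 of 102 were. Control replicate 3 had Foxc1 at 565 CPM, while the other controls lay between 277 and 313 CPM. The same library had Id3 at 393 CPM, while the other controls lay between 707 and 740 CPM. Dlx5 reached 77.9 CPM in control replicate 4, and 39.5 to 45.7 CPM elsewhere in that group. The markers of LEPR+ stroma took 4.27% of counts in LTβR-Ig replicate 1, and 3.66 to 3.72% in replicates 2 to 4 of that group. Skeletal muscle markers took 0.00126% of counts in LTβR-Ig replicate 4, and 0 to 8.01e-05% in replicates 1 to 3.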

How the results depend on the processing

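Meox1 kept its direction in all settings run. Its edgeR call was lost with the replicate number as a block (log2 fold change -2.81, edgeR adjusted p = 0.215) and without control replicate 3 and LTβR-Ig replicate 2 together, the ends of the first principal component (-2.78, edgeR adjusted p = 0.251); without 1 library the log2 fold change was -2.93 to -2.66 (edgeR adjusted p from 0.0231 to 0.0621). The count of members called was 1, and it was 0 with the block, 0 without both those libraries, and 0 to 1 without 1 library. The count of genes called over the whole table was 6, against 199 with DESeq2, 14 with limma-voom, 22 with the stricter filter, 1 with the block, 1 without both libraries and 2 to 9 without 1 library. Same-numbered libraries of the groups deviated from their group means with correlations of 0.000129 to 0.0749, and differently numbered ones with -0.0875 to 0.0786. Correlations this low cannot settle whether libraries were paired, and the series' design text speaks of 4 pairs. The main fit is unpaired, and the block fit is given beside it. The sign of Foxc1 turned with limma-voom (0.0035) and without both libraries (0.31), and its range without 1 library was -0.33 to 0.23. Twist2 turned with limma-voom (0.063) and the replicate block (0.086), and had -0.28 to 0.35 without 1 library. The cause of these shifts was not tested. The stricter filter left out Meox2 and Twist2, whose low counts limit their precision. Ranking likeness by fold change alone kept 1 of the 5 genes.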
